A study of Homo sapiens with 30 samples.

Results

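The transcription factors that drive or restrain the epithelial-mesenchymal transition (EMT) were examined in 5637 cells, a line of human bladder carcinoma cells. They were 10 genes, taken by name from each table of gene counts whatever their values: SNAI1, SNAI2, TWIST1, TWIST2, ZEB1 and ZEB2, which favour the mesenchymal state, and GRHL2, OVOL1, OVOL2 and KLF4, which favour the epithelial state. All 10 were present among the 60612 genes of the knockout table, where they were found by Ensembl identifier, and among the 56303 genes of the overexpression and knockdown tables. The series held 30 mRNA libraries in 10 groups of 3. KO1 and KO2 were cells edited for RBPMS, which encodes an RNA-binding protein that acts in splicing, and WT1 and WT2 were the control groups labelled wild type, each set against the knockout of its own number. ANKRD10-1 and ANKRD10-2 overexpressed the long or the short splice variant of ANKRD10, an ankyrin repeat gene, and Vector carried the empty plasmid. In siANKRD10-1 and siANKRD10-2 a variant was targeted by siRNA, and siNC received the negative control siRNA. The labels do not say whether replicates were separate cultures, so p-values measure the spread between these libraries only. The study describes its knockouts as expanded from single clones, and it places ANKRD10-1 overexpression and ANKRD10-2 knockdown in RBPMS knockout cells, and the other 2 treatments in cells without that edit. The labels name only the line and 1 control per experiment, so the RBPMS background of the ANKRD10 libraries is not settled here, and in comparisons of these groups with each other or with their shared control it cannot be told apart from the treatment.

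In EMT, epithelial cells loosen their junctions and take up a motile, mesenchymal programme. SNAI, ZEB and TWIST proteins bind short E-box sequences and repress epithelial genes such as CDH1, the gene of E-cadherin. GRHL2, OVOL1 and OVOL2 hold this programme back, in part by repressing ZEB1, and KLF4 supports the differentiated epithelial state and can repress SNAI2. In urothelium, the lining of the bladder, these epithelial factors accompany differentiation, and SNAI2 is also a gene of basal epithelial cells.

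To show where such factors could bind, the 250 bases before the RefSeq start of the genes are printed for KLF4 and ZEB2, members that changed in more than 1 comparison and have an entry in the promoter table (build GRCh38.p14, 5′ to 3′ on the gene's strand). Capitals mark every E-box, that is CANNTG. The window of KLF4 is chr9:107489770-107490019 on the minus strand, and that of ZEB2 is chr2:144520120-144520369 on the minus strand. Each window lies inside the span of its gene model, chr9:107484852-107490482 for KLF4, so part of that model is upstream of the window.
KLF4: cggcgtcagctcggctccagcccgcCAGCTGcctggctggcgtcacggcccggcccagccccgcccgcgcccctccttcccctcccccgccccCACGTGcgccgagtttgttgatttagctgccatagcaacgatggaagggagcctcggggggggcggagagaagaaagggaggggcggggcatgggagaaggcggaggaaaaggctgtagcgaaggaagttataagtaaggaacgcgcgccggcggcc
ZEB2: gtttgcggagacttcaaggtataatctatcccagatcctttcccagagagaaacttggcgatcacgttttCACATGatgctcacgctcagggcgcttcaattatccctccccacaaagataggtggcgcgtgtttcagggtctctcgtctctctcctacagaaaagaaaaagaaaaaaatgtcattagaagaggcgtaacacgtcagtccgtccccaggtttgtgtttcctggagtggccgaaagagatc

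The KLF4 window held 2 E-boxes, CAGCTG and CACGTG, the second of which starts 157 bases before the RefSeq start used here. CACGTG is the E-box bound by MYC, whose pathway the study followed, and it occurs in 6.34% of the 35116 windows of this length. The ZEB2 window held 1 E-box, CACATG, while 61.8% of all windows hold at least 1. CACCTG, or CAGGTG on the other strand, is the E-box of the SNAI and ZEB proteins and was found in 17.5% of all windows but in neither of these. CANNTG includes the other motifs, so these counts overlap. The matches are of letters only.

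Sequencing depth ran from 44593108 to 69723937 counts per library in the knockout table, from 31736779 to 47493499 in the overexpression table and from 28511029 to 32784584 in the knockdown table. RBPMS was at 14.0 to 15.01 CPM (counts scaled to the same total in each library) in KO1 and 18.7 to 20.7 in KO2, against 40.0 to 44.9 over WT1 and WT2, while it was at 3.57 to 6.14 CPM in the overexpression and 4.39 to 5.95 CPM in the knockdown libraries. The summed reads of ANKRD10, in which both variants count, were at 233 to 245 CPM in ANKRD10-1 and 179 to 199 CPM in ANKRD10-2 against 153 to 154 CPM in Vector, and at 45.2 to 49.7 CPM in both siRNA groups against 53.7 to 57.7 CPM in siNC. In the knockouts they were at 79.8 to 88.7 CPM in KO1 and 107 to 113 CPM in KO2, against 190 to 200 CPM over WT1 and WT2. The tables were counted separately, so levels in different tables were not tested against each other. Of 12 urothelial and epithelial markers, 10 or 11 were detected in each library, at a summed 2974 to 5570 CPM. Of the markers of other cell types, the collagen gene COL1A1 was at 30.5 to 53.6 CPM in the knockout table and the macrophage marker CD68 at 16.02 to 24.3 CPM in the overexpression table, while PTPRC and CD3E, which mark leukocytes, had no count in the knockout table.

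Per kilobase of exon, SNAI2 was the most abundant of the 10 factors in each table, with a median of 31.98 RPKM (CPM divided by the exon length in kilobases) over the 12 knockout-table libraries, 43.9 over the 9 overexpression libraries and 23.2 over the 9 knockdown libraries. GRHL2 followed, with medians of 19.1, 11.7 and 11.7 RPKM in the same order of tables. Next stood KLF4 (5.00, 3.73 and 1.21 RPKM), OVOL2 (3.03, 9.64 and 7.30 RPKM) and TWIST1 (3.16, 3.75 and 3.29 RPKM), whose ranges overlapped in part: KLF4 and TWIST1 overlapped in the knockout and overexpression tables. ZEB2, OVOL1 and SNAI1 were lower, with medians of 0.288, 0.866 and 0.347 RPKM in the knockout table. The place of ZEB2 depends on its exon length of 23.7 kilobases. By CPM, its medians in the overexpression and knockdown tables, 24.8 and 18.2, were above those of OVOL2 (21.0 and 15.9). KLF4 (13.7 and 4.42) and TWIST1 (7.63 and 6.69) were lower still. In the knockout table ZEB2 had a median of 6.82 CPM, below KLF4 at 18.3 CPM. TWIST2 lay at the floor of detection in each table, and ZEB1 in the knockout table. ZEB1 had medians of 0.153 RPKM in the overexpression table and 0.0647 RPKM in the knockdown table. The lowest SNAI2 level in the knockout table, 22.8 RPKM, was above the highest GRHL2 level there, 22.0 RPKM, so the SNAI2 and GRHL2 ranges stood next to each other without overlap. This order also depends on exon length, 2.28 kilobases for SNAI2 and 6.06 for GRHL2. By CPM GRHL2 was higher in the knockout table, at 97.5 to 133 against 52.1 to 84.1 for SNAI2. By median CPM GRHL2 was also higher in the knockdown table (71.1 against 52.9), but lower in the overexpression table (70.9 against 100.2).

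**Figure D1:**
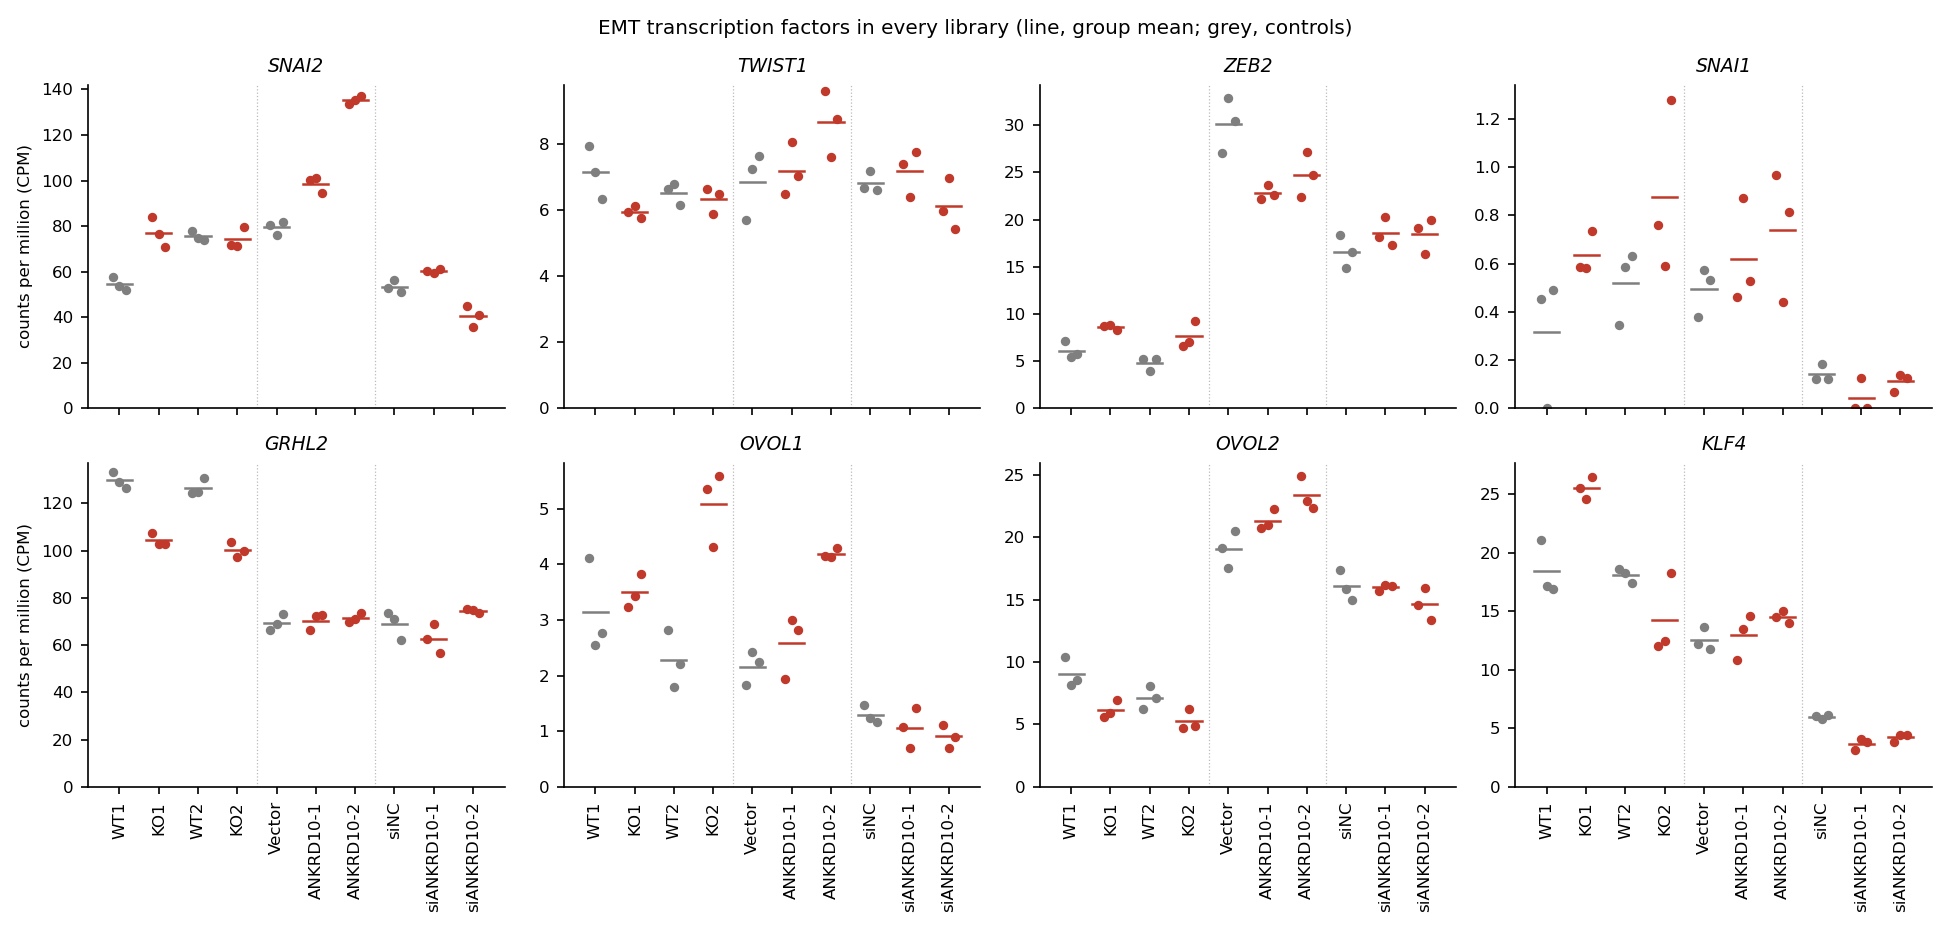
CPM of 8 EMT transcription factors in each of the 30 libraries, with 1 panel per gene and its own axis from 0, groups on the horizontal axis, dotted lines between the 3 tables, points for libraries and lines for group means (grey, controls). SNAI2 was highest in ANKRD10-2 (134 to 137 CPM), and GRHL2 in both knockouts (97.5 to 107 CPM) was below both WT groups (124 to 133 CPM).

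RBPMS loss was the first question of the design. In KO1 against WT1, 8 factors passed the filter on low counts: SNAI2, ZEB2 and KLF4 rose, GRHL2 and OVOL2 fell, and 3 did not pass the test, beside 36.1% of all 17865 genes tested that were called in either direction (edgeR's quasi-likelihood test, adjusted p under 0.05). In KO2 against WT2, ZEB2 and OVOL1 rose, GRHL2 fell and 5 did not pass the test, where 38.5% of 18267 genes were called. ZEB2 was thus called higher and GRHL2 lower in both knockouts. WT2 differed from WT1 in 1.23% of 18335 genes, and SNAI2 was among them. In the test of the KO1 change minus the KO2 change, which called 23.3% of 19189 genes, SNAI2 and KLF4 had the more positive change in KO1 and OVOL1 the more positive change in KO2. The median log2 fold change of the 8 factors tested was 0.36 in KO1 and 0.01 in KO2, beside medians of -0.00199 and -0.0161 over all genes tested. Lack of overlap in CPM between 2 groups, given below for single factors, was frequent over all genes. It held for 8669 of 17865 genes in KO1, 9068 of 18267 in KO2 and 3584 of 18335 between WT2 and WT1.

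The other experiments asked what each ANKRD10 variant does. In ANKRD10-1 against Vector, SNAI2 rose and ZEB2 fell out of 9 factors tested, beside 6.31% of 20457 genes called. In ANKRD10-2 against the same Vector libraries, SNAI2, TWIST1, OVOL1, OVOL2 and KLF4 rose and none fell out of 9, where 19.9% of 20177 genes were called. Against siNC, KLF4 fell in siANKRD10-1, the only call among 8 factors tested and beside 10.6% of 18785 genes, and SNAI2 and KLF4 fell in siANKRD10-2, beside 36.3% of 18924 genes. Compared directly, ANKRD10-2 had more SNAI2 and OVOL1 than ANKRD10-1 (7.26% of 20052 genes called), and siANKRD10-2 had less SNAI2 and more GRHL2 than siANKRD10-1 (37% of 18832 genes called). Groups did not overlap in CPM for 5354 of 20457 genes in ANKRD10-1 and 7675 of 20177 in ANKRD10-2. With the siRNAs this held for 5272 of 18785 genes in siANKRD10-1 and 8735 of 18924 in siANKRD10-2. In the direct comparisons it held for 5295 of 20052 and 8810 of 18832 genes.

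**Figure D2:**
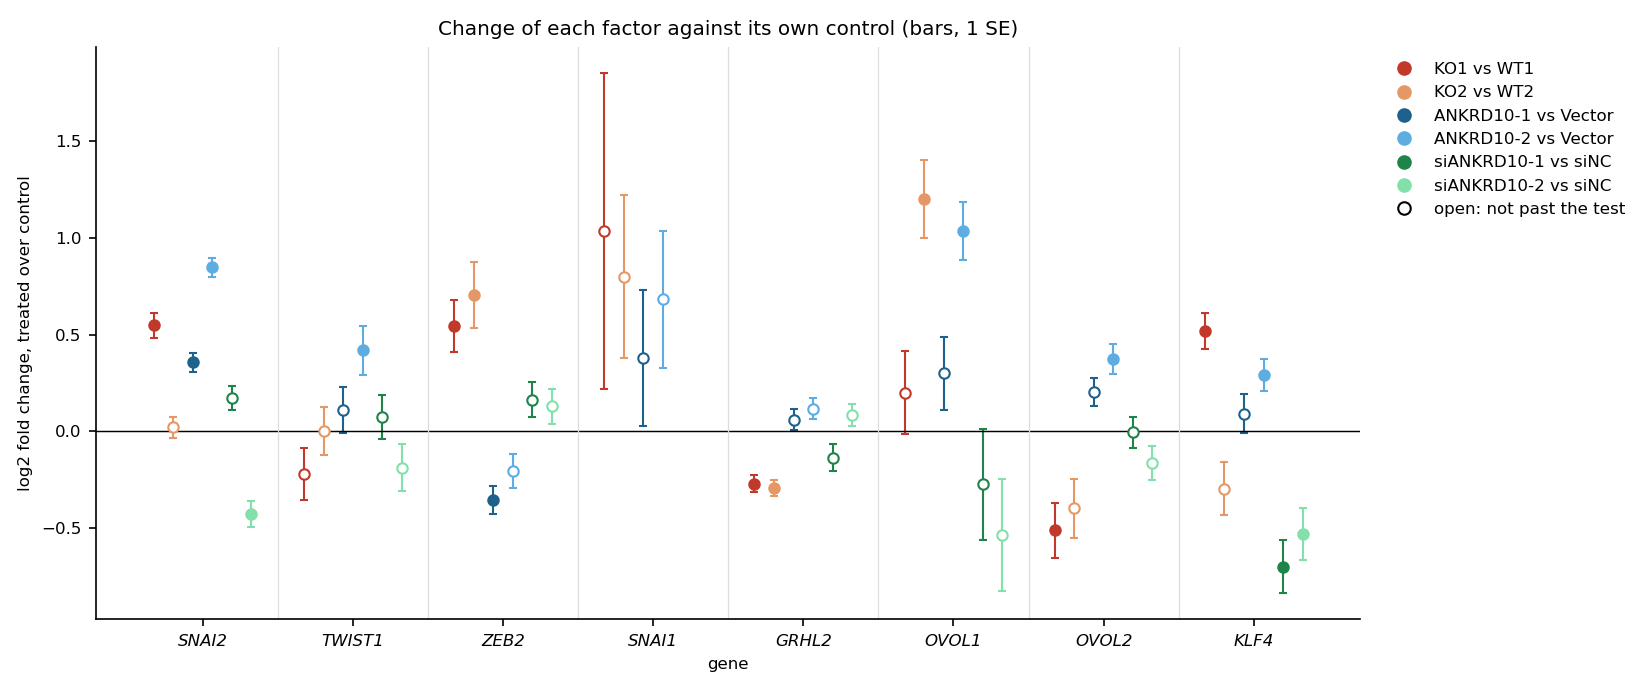
Log2 fold change of 8 factors in each treated group over its own control, with bars of 1 standard error (SE), filled points for changes past an adjusted p of 0.05 and open points for the rest. ZEB2 was above 0 in both knockouts (0.54 and 0.71), while KLF4 was below 0 in both siRNA groups (-0.70 and -0.53).

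SNAI2, a zinc finger repressor of junction genes encoded on the minus strand of chromosome 8, was at 84.1, 76.6 and 70.8 CPM in KO1 against 57.5, 53.8 and 52.1 CPM in WT1. Each KO1 library was above each WT1 library. The change was 0.55 ± 0.07 on the log2 scale (SE, n = 3 and 3), with an adjusted p of 8.09e-05. In KO2 it was at 71.9, 71.4 and 79.8 CPM against 77.8, 74.8 and 74.0 CPM in WT2, and these groups overlapped (log2 fold change 0.02 ± 0.05, adjusted p = 0.803). The KO1 change minus the KO2 change was 0.53 ± 0.09 (adjusted p = 0.000377). The control groups also differed: WT2 had more SNAI2 than WT1 with no overlap (log2 fold change 0.48 ± 0.05, adjusted p = 0.000719), whereas the ranges of KO1 and KO2 overlapped. With all 6 WT libraries as the control of KO1 the change was 0.29 ± 0.12 and no longer passed the test (adjusted p = 0.062). With the other WT group as control, chosen after the WT difference was seen, KO1 differed by 0.08 ± 0.06 (adjusted p = 0.369) and KO2 by 0.50 ± 0.06 (adjusted p = 3.79e-05).

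In the overexpression libraries SNAI2 was at 80.4, 76.2 and 81.6 CPM in Vector. It was at 100.2, 101.3 and 94.5 CPM in ANKRD10-1 and at 134, 135 and 137 CPM in ANKRD10-2. The 3 groups formed 3 separate levels. The rise was 0.36 ± 0.05 for ANKRD10-1 (adjusted p = 0.00019) and 0.85 ± 0.05 for ANKRD10-2 (adjusted p = 3.23e-08) on the log2 scale, and the direct difference between the variants was 0.49 ± 0.05 (adjusted p = 4.65e-06). In siANKRD10-2 it was at 45.1, 35.8 and 40.8 CPM against 52.9, 56.5 and 51.0 CPM in siNC. SNAI2 fell by 0.43 ± 0.07 there (adjusted p = 2.14e-05), while siANKRD10-1, at 60.3, 59.2 and 61.1 CPM, lay above every siNC library without passing the test (log2 fold change 0.17 ± 0.06, adjusted p = 0.0729). SNAI2 was lower in siANKRD10-2 than in siANKRD10-1 (log2 fold change -0.59 ± 0.07, adjusted p = 4.96e-07).

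SNAI1, the other Snail repressor (chr20:49982999-49988886, plus strand), had few reads. In the knockout table it had 39, 26 and 39 counts in KO1 and 23, 0 and 33 in WT1. The KO2 libraries had 43, 30 and 84 counts and those of WT2 had 23, 32 and 44. These changes did not pass the test (log2 fold change 1.04 ± 0.82, adjusted p = 0.364, and 0.80 ± 0.42, adjusted p = 0.163). In the overexpression table the gene had 14 to 40 counts a library and no call. With 0 to 6 counts a library it did not pass the filter in the knockdown table.

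TWIST1, a basic helix-loop-helix factor (chr7:19020991-19117672, minus strand), was at 5.44 to 9.61 CPM across all 30 libraries. In ANKRD10-2 it was at 9.61, 7.63 and 8.77 CPM against 5.70, 7.25 and 7.64 CPM in Vector. The lowest ANKRD10-2 library lay just under the highest Vector library, and the change of 0.42 ± 0.13 passed the test (adjusted p = 0.0301). It did not pass without ANKRD10-2 replicate 1 (adjusted p = 0.112) or 3 (0.0742), or without Vector replicate 1 (0.131) or 2 (0.0598). In the other comparisons with a control its log2 fold change ran from -0.22 in KO1 to 0.11 in ANKRD10-1 with no call. In siANKRD10-2 against siANKRD10-1 a call (-0.35, adjusted p = 0.0412) appeared only when replicate 2 of siANKRD10-1 was left out. TWIST2, its paralog (chr2:238848032-238910543, plus strand), had no count in 27 libraries and 2 counts in each of the other 3, and was tested nowhere.

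ZEB1, the zinc finger factor that GRHL2 and the OVOL genes repress (chr10:31318495-31529814, plus strand), had 0 to 13 counts in the knockout table, too few to test. It had 30 to 64 counts a library in the overexpression table and 12 to 26 in the knockdown table. In ANKRD10-1 it had 32, 44 and 43 counts against 57, 46 and 64 in Vector. These groups did not overlap in CPM, yet the change of -0.54 ± 0.24 did not pass the test (adjusted p = 0.207). No other comparison called it. An exon of the antisense gene ZEB1-AS1 shares 334 bases with ZEB1, and the strand setting of the counting is not given in the sources used here, so reads there cannot be told apart.

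ZEB2, the close paralog of ZEB1 (chr2:144384081-144524583, minus strand), was at 8.70, 8.81 and 8.28 CPM in KO1 against 7.12, 5.40 and 5.74 CPM in WT1. In KO2 it was at 6.64, 7.01 and 9.25 CPM against 5.23, 3.95 and 5.28 CPM in WT2. In both pairs every knockout library was above every control library. ZEB2 rose by 0.54 ± 0.14 in KO1 (adjusted p = 0.00893) and by 0.71 ± 0.17 in KO2 (adjusted p = 0.0059). The changes did not differ between the knockouts beyond their error (difference -0.16 ± 0.22, adjusted p = 0.676). With WT1 as the control of KO2 the change was 0.38 ± 0.16 (adjusted p = 0.0932), since the WT2 libraries were all below those of WT1.

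ANKRD10-1 moved ZEB2 the other way: it was at 22.2, 23.7 and 22.6 CPM against 27.1, 32.9 and 30.4 CPM in Vector, with no overlap. ZEB2 fell by 0.35 ± 0.07 on the log2 scale (adjusted p = 0.00632). In ANKRD10-2 it was at 22.4, 27.2 and 24.8 CPM, which overlapped Vector, and the change of -0.20 ± 0.09 did not pass the test (adjusted p = 0.112). The direct comparison of the variants gave no call. Neither siRNA group differed from siNC (log2 fold change 0.16 ± 0.09 and 0.13 ± 0.09, adjusted p = 0.261 and 0.287). The antisense gene ZEB2-AS1 shares 688 bases of an exon with ZEB2 and had at most 14 counts in any library, against 216 or more for ZEB2.

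GRHL2, a grainyhead factor that keeps junction genes on, lies on the plus strand of chromosome 8. It was at 107, 103 and 103 CPM in KO1 against 133, 129 and 127 CPM in WT1. In KO2 it was at 104, 97.5 and 99.8 CPM against 124, 125 and 131 CPM in WT2. The 6 knockout libraries were all below the 6 WT libraries. GRHL2 fell by 0.27 ± 0.05 in KO1 (adjusted p = 0.000799) and by 0.29 ± 0.04 in KO2 (adjusted p = 0.000129), and the changes differed by 0.02 ± 0.06 (adjusted p = 0.866). It stayed called in both knockouts without any 1 library, under each tool and with each choice of WT control. Overexpression left it at 66.4 to 73.6 CPM in all 3 groups with no call.

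Among the siRNA groups GRHL2 was at 75.1, 75.0 and 73.6 CPM in siANKRD10-2 and at 62.6, 68.9 and 56.7 CPM in siANKRD10-1. These did not overlap and differed by 0.23 ± 0.06 on the log2 scale (adjusted p = 0.006). The siNC libraries, at 73.7, 71.1 and 62.2 CPM, overlapped both, and neither siRNA group differed from them past the test.

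OVOL1, a zinc finger repressor (chr11:65787022-65797219, plus strand), was at 5.36, 4.31 and 5.58 CPM in KO2 against 2.82, 1.79 and 2.21 CPM in WT2, with no overlap. OVOL1 rose by 1.2002 ± 0.20 there, a 2.30-fold difference and the largest among the factors called (adjusted p = 0.000544). In KO1 it was at 3.24, 3.43 and 3.82 CPM, inside the WT1 range of 2.56 to 4.12 CPM (log2 fold change 0.20 ± 0.22, adjusted p = 0.517). The KO1 change minus the KO2 change was -1.0034 ± 0.30 (adjusted p = 0.0253). This difference lost its call (adjusted p from 0.0537 to 0.0781) without KO1 replicate 1, KO2 replicate 1 or 3, WT1 replicate 1 or WT2 replicate 2 or 3. Against WT2 in place of WT1, KO1 was also called higher (0.66 ± 0.22, adjusted p = 0.0319).

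In ANKRD10-2 OVOL1 was at 4.15, 4.13 and 4.30 CPM against 1.82, 2.42 and 2.25 CPM in Vector. It rose by 1.04 ± 0.15 on the log2 scale, 2.05-fold (adjusted p = 0.000286). ANKRD10-1, at 1.94, 3.00 and 2.82 CPM, overlapped Vector (0.30 ± 0.19, adjusted p = 0.397). The direct difference between the variants was 0.74 ± 0.16 (adjusted p = 0.00706), and it was 0.57 without ANKRD10-1 replicate 1 (adjusted p = 0.0562). In the knockdown table OVOL1 had 20 to 48 counts a library. It was lower in every siANKRD10-2 library (1.11, 0.701 and 0.902 CPM) than in every siNC library (1.48, 1.24 and 1.16 CPM), but the change of -0.54 ± 0.29 did not pass the test (adjusted p = 0.155). The antisense gene AP001266.1 shares 684 bases of an exon with OVOL1.

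OVOL2, its paralog (chr20:17956979-18059188, minus strand), was at 5.57, 5.94 and 6.92 CPM in KO1 against 10.4, 8.18 and 8.54 CPM in WT1, with no overlap. OVOL2 fell by 0.51 ± 0.14 (adjusted p = 0.0165), but the call was lost without KO1 replicate 1 (adjusted p = 0.0631) or WT1 replicate 1 (0.0791), with all WT libraries as control (-0.35 ± 0.15, adjusted p = 0.0715) and against WT2 (-0.17 ± 0.15, adjusted p = 0.411). In KO2 it was at 4.71, 6.204 and 4.91 CPM against 6.25, 8.09 and 7.13 CPM in WT2. The groups did not overlap and the change of -0.40 ± 0.15 did not pass the test (adjusted p = 0.06), though it did without KO2 replicate 2 (-0.53, adjusted p = 0.0276) or WT2 replicate 1 (-0.49, adjusted p = 0.0485), with all WT libraries (-0.58, adjusted p = 0.00747) and against WT1 (-0.73, adjusted p = 0.00192).

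With ANKRD10-2 OVOL2 was at 25.0, 22.9 and 22.4 CPM against 19.1, 17.5 and 20.5 CPM in Vector. The groups did not overlap, and OVOL2 rose by 0.37 ± 0.08 (adjusted p = 0.00471). ANKRD10-1, at 20.7, 21.0 and 22.3 CPM, stood between them and differed from Vector by 0.20 ± 0.07 (adjusted p = 0.112), which passed only without Vector replicate 3 (0.26, adjusted p = 0.0369). In the knockdown table OVOL2 was at 13.3 to 17.4 CPM with no call.

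KLF4, a Krüppel-like factor of differentiated epithelium (chr9:107484852-107490482, minus strand), was at 25.6, 24.6 and 26.5 CPM in KO1 against 21.1, 17.2 and 16.9 CPM in WT1. KLF4 rose by 0.52 ± 0.09 there (adjusted p = 0.00116). In KO2 it was at 12.03, 12.5 and 18.3 CPM against 18.6, 18.3 and 17.4 CPM in WT2, and the change of -0.30 ± 0.14 did not pass the test (adjusted p = 0.117). KO2 replicate 3 stood apart from the other KO2 libraries, and without it the change was -0.52 (adjusted p = 0.00107). The changes in KO1 and KO2 differed by 0.81 ± 0.19 (adjusted p = 0.00455).

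In ANKRD10-2 KLF4 was at 14.5, 15.03 and 14.0 CPM against 12.2, 13.7 and 11.8 CPM in Vector. It rose by 0.29 ± 0.08 (adjusted p = 0.0244), and this call was lost without ANKRD10-2 replicate 1 (adjusted p = 0.0504) or 2 (0.0697) or without Vector replicate 1 (0.087) or 3 (0.0867). Both siRNAs gave lower levels: 3.14, 4.09 and 3.82 CPM in siANKRD10-1 and 3.79, 4.42 and 4.45 CPM in siANKRD10-2, against 6.01, 5.78 and 6.16 CPM in siNC. Every siRNA library was below every siNC library. KLF4 fell by 0.70 ± 0.14 with siANKRD10-1 (adjusted p = 0.00253) and by 0.53 ± 0.13 with siANKRD10-2 (adjusted p = 0.00247), in comparisons that share the siNC libraries. These libraries had 100 to 202 KLF4 counts each. The window with the CACGTG match printed above is that of KLF4, and the data hold no measure of binding there.

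Genes on which these factors act were set beside them from a list chosen with results of these data known. Of 22 epithelial targets tested, 5 rose and 7 fell in KO1 (beside 36.1% of all genes called), 5 rose and 4 fell in KO2 (38.5%), 1 rose and 2 fell in ANKRD10-1 (6.31%), 3 rose and none fell in ANKRD10-2 (19.9%), 1 rose and 4 fell in siANKRD10-1 (10.6%), and 4 rose and 8 fell in siANKRD10-2 (36.3%). CDH1 was at 224 to 243 CPM in KO1 and 211 to 221 CPM in WT1, a rise of 0.14 ± 0.04 (adjusted p = 0.0276). CDH1 in the WT2 libraries, at 225 to 226 CPM, lay inside the KO1 range. In KO2 it did not change past the test (log2 fold change -0.0043 ± 0.03, adjusted p = 0.933). It fell with both siRNAs, to 79.9 to 86.9 CPM and 75.8 to 85.8 CPM from 104 to 106 CPM in siNC (by 0.33 ± 0.06, adjusted p = 0.000734, and by 0.40 ± 0.06, adjusted p = 3.33e-06). EPCAM, an epithelial adhesion gene, rose in both knockouts by 0.37 ± 0.05 and 0.39 ± 0.04 (adjusted p = 0.000124 and 1.85e-05). It also rose in ANKRD10-2 by 0.23 ± 0.06 (adjusted p = 0.0103) and fell with siANKRD10-2 by 0.18 ± 0.06 (adjusted p = 0.0153). CDH1 in the overexpression table was at 113 to 121 CPM in Vector, 97.2 to 108 CPM in ANKRD10-1 and 112 to 117 CPM in ANKRD10-2.

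Of 15 mesenchymal targets tested, 4 rose and 7 fell in KO1, and 12 rose and 2 fell in KO2, beside 36.1% and 38.5% of all genes called. In the test of the KO1 change minus the KO2 change, 1 was called higher, 8 lower and 6 were not called, beside 23.3% of all genes. Their median log2 fold change was -0.23 in KO1 and 0.77 in KO2, beside medians of -0.00199 and -0.0161 over all genes tested. VIM, which encodes the filament protein vimentin, was at 62.9 to 76.0 CPM in KO1 and 44.2 to 47.0 CPM in KO2 against 3.97 to 5.42 CPM over WT1 and WT2 (15.7-fold and 10.2-fold, adjusted p = 2.81e-09 and 1.86e-10). CDH2, the gene of N-cadherin, fell in KO1, at 37.1 to 40.5 CPM against 72.4 to 80.2 CPM in WT1, and rose in KO2, at 170 to 179 CPM against 64.4 to 67.0 CPM in WT2. The difference between these changes was -2.40 ± 0.07 (adjusted p = 1.5e-12). Of 16 tested in the overexpression table, 1 rose and 2 fell in ANKRD10-1 (beside 6.31% of all genes) and 6 rose and 2 fell in ANKRD10-2 (19.9%). VIM was at 27.3 to 28.4 CPM in Vector, 33.6 to 39.8 CPM in ANKRD10-1 and 61.5 to 69.3 CPM in ANKRD10-2, and rose in both (log2 fold change 0.46 ± 0.07, adjusted p = 0.000408, and 1.29 ± 0.06, adjusted p = 5.22e-09). Of 15 tested in the knockdown table, 4 rose and 2 fell with siANKRD10-1 (10.6%) and 7 rose and 5 fell with siANKRD10-2 (36.3%). VIM rose with siANKRD10-1 (0.35 ± 0.09, adjusted p = 0.0157) and fell by 0.28 ± 0.10 with siANKRD10-2 (adjusted p = 0.0272). CDH2 fell by 0.18 ± 0.06 with siANKRD10-1 (adjusted p = 0.0487) and rose by 0.45 ± 0.06 with siANKRD10-2 (adjusted p = 7.06e-07).

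**Figure D3:**
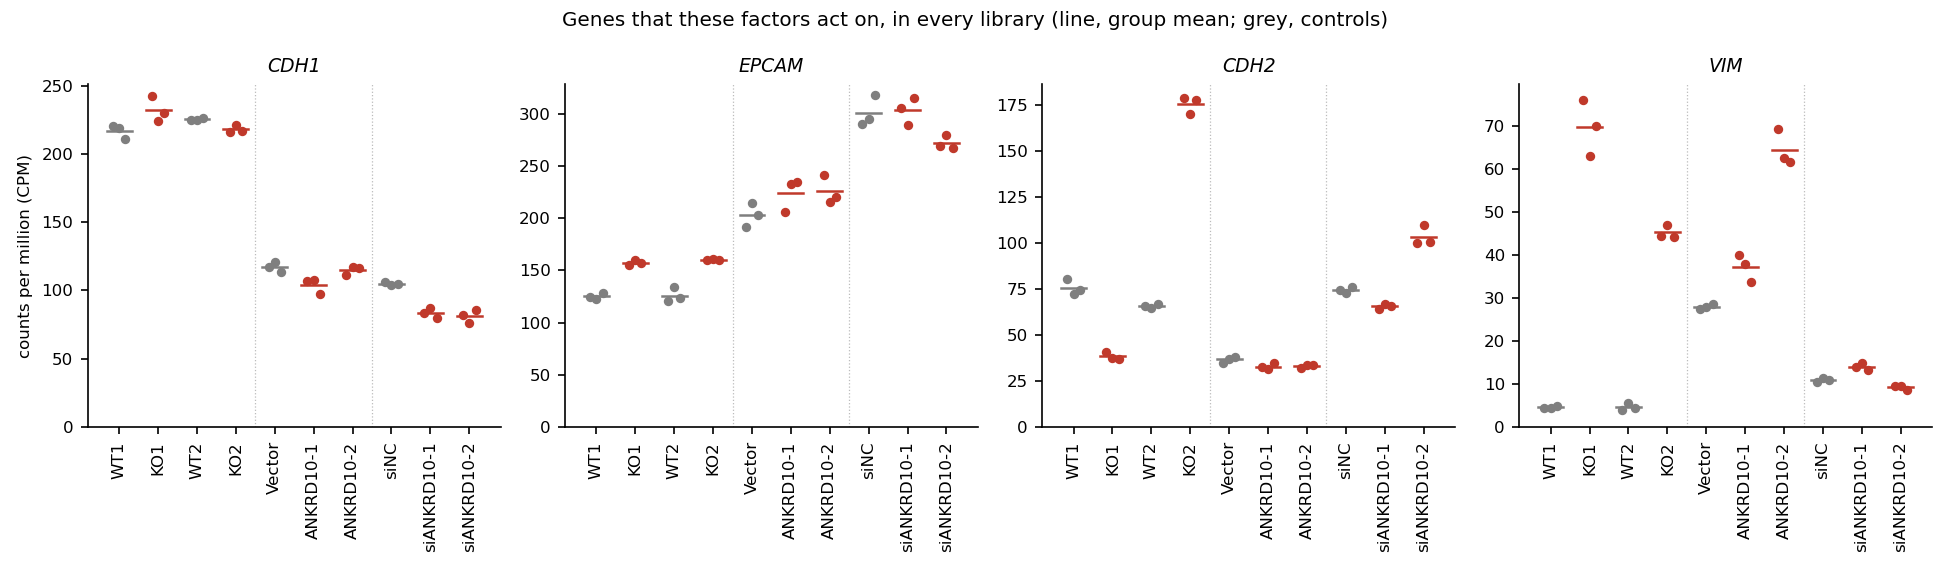
CPM of the epithelial genes CDH1 and EPCAM and the mesenchymal genes CDH2 and VIM in each library, with an axis from 0 in each panel, groups on the horizontal axis, points for libraries and lines for group means (grey, controls). CDH2 in KO1 (37.1 to 40.5 CPM) and in KO2 (170 to 179 CPM) lay on opposite sides of their WT groups.

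Of 15 other EMT-inducing factors tested, 3 rose and 7 fell in KO1 and 6 rose and 6 fell in KO2, beside 36.1% and 38.5% of all genes called. FOSL1, an AP-1 factor, rose in both, to 42.2 to 54.0 CPM and 33.6 to 50.8 CPM from 10.0 to 12.4 CPM in the WT libraries (log2 fold change 2.15 ± 0.10 and 1.88 ± 0.14). It was also higher in ANKRD10-1 (0.42 ± 0.04) and ANKRD10-2 (0.89 ± 0.05) and lower with siANKRD10-1 (-0.47 ± 0.08), each past the test, and did not pass it with siANKRD10-2 (-0.13 ± 0.07, adjusted p = 0.161). ID2, an inhibitor of basic helix-loop-helix factors, fell in both knockouts (by 1.76 ± 0.16 and by 1.06 ± 0.12). Of the epithelial factors outside the 10 members, 4 of 12 tested rose and 5 fell in KO1 (36.1% of all genes called), and 2 of 11 rose and 5 fell in KO2 (38.5%). GATA3, a factor of luminal urothelium, fell in both, by 1.35 ± 0.07 and by 0.76 ± 0.05.

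Of 16 genes tested that assist or turn over the SNAI and ZEB proteins, 4 rose and 3 fell in KO1 (36.1% of all genes called), 2 rose and 3 fell in KO2 (38.5%), and none passed edgeR's test in ANKRD10-1 (6.31%). In ANKRD10-2 3 rose and 1 fell (19.9%), with siANKRD10-1 1 rose and 3 fell (10.6%), and with siANKRD10-2 5 rose and 2 fell (36.3%). LOXL2, which stabilizes Snail protein, rose in both knockouts (log2 fold change 1.26 ± 0.11 and 1.61 ± 0.05), in ANKRD10-2 (0.38 ± 0.05) and with siANKRD10-1 (0.31 ± 0.07, adjusted p = 0.00893). It did not pass the test with siANKRD10-2 (-0.02 ± 0.07, adjusted p = 0.845). Of 5 paralogs of the members tested, none rose and 2 fell in KO1 (36.1%), and 1 rose and 2 fell in KO2 (38.5%). None was called in ANKRD10-1 (6.31%), and 1 rose and 1 fell in ANKRD10-2 (19.9%). None rose with the siRNAs, while 2 fell with siANKRD10-1 (10.6%) and 3 with siANKRD10-2 (36.3%). KLF6 fell in KO1 (by 0.52 ± 0.06) and rose in KO2 (1.02 ± 0.09). KLF5 fell in both knockouts (by 0.18 ± 0.04 and by 0.31 ± 0.03) and with both siRNAs (by 0.41 ± 0.05 and by 0.58 ± 0.06). GRHL1 fell in KO2 (by 0.60 ± 0.08, adjusted p = 0.000121). The noncoding genes next to members had at most 3 tested genes in any comparison and none was called, beside 1.23% to 38.5% of all genes.

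Of 6 fibroblast and smooth muscle markers tested in KO1, 1 rose and 3 fell (beside 36.1% of all genes called), and of 5 tested in KO2 none rose and 2 fell (38.5%). PDGFRB, a receptor of mesenchymal cells, rose in KO1 (log2 fold change 1.63 ± 0.35, adjusted p = 0.00401). LUM fell there by 6.12 ± 0.72 (adjusted p = 7.91e-05), to a mean of 0.0598 CPM from 3.79 CPM in WT1. COL1A1 fell in KO1 by 0.53 ± 0.07 (adjusted p = 0.00025). In KO2 LUM fell by 2.93 ± 0.21 (adjusted p = 5.61e-07) and ACTA2 by 0.55 ± 0.19 (adjusted p = 0.0374). The summed level of the 10 marker genes was 36.5 to 43.6 CPM in KO1 against 59.2 to 63.1 CPM in WT1, and 53.7 to 54.7 CPM in KO2 against 61.2 to 64.1 CPM in WT2. Most of this was COL1A1, while COL1A2, COL3A1 and DES were at or under 0.202 CPM in the knockout table. In the overexpression table none of 9 tested was called in either group by edgeR, beside 6.31% of all genes in ANKRD10-1 and 19.9% in ANKRD10-2. In the knockdown table none of 7 tested was called with siANKRD10-1 (10.6%). Of 6 tested with siANKRD10-2 (36.3%), COL1A1 rose (0.22 ± 0.06, adjusted p = 0.00903) and MYH11 fell by 1.09 ± 0.13 (adjusted p = 3.45e-07).

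Of 10 urothelial and epithelial markers tested in each ANKRD10 comparison, 4 rose and none fell in ANKRD10-1, 6 rose and none fell in ANKRD10-2, none rose and 4 fell in siANKRD10-1, and none rose and 7 fell in siANKRD10-2, beside 6.31%, 19.9%, 10.6% and 36.3% of all genes called. The knockouts were mixed: 3 of 10 tested rose and 2 fell in KO1 (36.1%), and 3 of 11 rose and 4 fell in KO2 (38.5%). The summed level of these markers was 3182 to 3331 CPM in ANKRD10-1 and 3217 to 3611 CPM in ANKRD10-2 against 2974 to 3146 CPM in Vector. It was 4556 to 4769 CPM in siANKRD10-1 and 3428 to 3546 CPM in siANKRD10-2 against 5494 to 5570 CPM in siNC.

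The endothelial marker PECAM1 rose in KO1 (1.44 ± 0.30, adjusted p = 0.00332) and KO2 (1.46 ± 0.46, adjusted p = 0.0245) from levels at or under 1.97 CPM throughout the knockout table, and fell with siANKRD10-2 (by 0.93 ± 0.29, adjusted p = 0.0134). CD68 fell in ANKRD10-1 (by 0.44 ± 0.07, adjusted p = 0.00085), in ANKRD10-2 (by 0.34 ± 0.07, adjusted p = 0.00428) and with siANKRD10-2 (by 0.46 ± 0.10, adjusted p = 0.00045), and rose in KO2 (4.16 ± 0.51, adjusted p = 4.77e-05), where it was at most 1.57 CPM. Summed immune markers, nearly all of it CD68 in the overexpression table, were at 16.5 to 18.5 CPM in ANKRD10-1 and ANKRD10-2 against 23.1 to 24.9 CPM in Vector, and at 9.72 to 10.6 CPM in siANKRD10-2 against 12.6 to 14.0 CPM in siNC. The part of these markers in the levels of the factors was not tested.

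Over the 30 libraries, with log2 CPM centred within each table, the genes most like each factor were found among 13229 genes by Pearson's r, as a description in which all points share their libraries and tables. For SNAI2 these were RHOA (r = 0.865) and EIF1 (r = 0.862), and for GRHL2 they were SBF2 (r = 0.908) and DPYSL3 (r = 0.898). ZEB2 was most like GAS6-AS1 (r = 0.845) and SLC9A7 (r = 0.828). OVOL1 was most like PLK2 and FGFR1 (each r = 0.79), OVOL2 like PLEKHF2 (r = 0.781) and IER5L (r = 0.758), KLF4 like KLF10 (r = 0.805) and CKB (r = 0.802), and TWIST1 like SH2B2 (r = 0.749) and ERF (r = 0.745).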

How the data were processed

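RNA of 5637 cells was extracted with TRIzol and made into stranded mRNA libraries, per the labels. The deposited values were raw read counts per gene. The submitters' processing notes name Trimmomatic 0.36, featureCounts of Subread 1.5.1 and GRCh38, while the methods of the study name other tools, and the annotation and strand setting are not given in the sources used here. Low counts of 1 to 10 were even in 69.5% of overexpression and 75.2% of knockdown entries against 46.6% in the knockout table, so the unit of counting may differ between tables. Counts were tested with edgeR 4.0.16 in R 4.3.3 (TMM scaling, filterByExpr with a minimum count of 10 and total of 15, quasi-likelihood F-test, Benjamini-Hochberg adjustment over all genes tested, threshold 0.05). Each comparison was fitted on its own groups of 3 libraries, and the difference between the knockouts on their 12 libraries. SE was the log2 fold change divided by the square root of F. CPM used the total count, and RPKM the gene lengths of the overexpression table. Scripts were tested on simulated data. DESeq2 1.42.0, other scaling, no filter, other controls, a replicate block and leaving out each library were tried as alternatives. The members and gene lists were chosen with earlier results of these data known. All 10 factors were named, as were CDH1, EPCAM, CDH2, VIM and the targeted genes. Other list genes with a printed change were among the 3 with the largest called change of their list in some comparison. In that comparison their groups did not overlap and their mean was at least 50 normalized counts. Not all such genes were named. Those left out in KO1 include CRB3 (log2 fold change -6.32), SPARC (-4.03) and FOXA2 (2.88). An exact permutation test of 3 libraries against 3 cannot give a p below 0.1, so none was used. Promoter sequences came from RefSeq (GRCh38.p14), and 4 of the 10 factors were matched in the table of promoters used here.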

Additional observations from a re-analysis of the deposited data

Results flagged for a closer look

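The results below were taken out because the same contrast gave different effects in 2 groups by a test of the difference itself (edgeR's quasi-likelihood test). SNAI2 and OVOL1 were higher with ANKRD10-2 than with ANKRD10-1, by 0.49 ± 0.05 (adjusted p = 4.65e-06) and 0.74 ± 0.16 (adjusted p = 0.00706) on the log2 scale. Between the siRNA groups, siANKRD10-2 minus siANKRD10-1 was -0.59 ± 0.07 for SNAI2 (adjusted p = 4.96e-07) and 0.23 ± 0.06 for GRHL2 (adjusted p = 0.006). The KO1 change minus the KO2 change was 0.53 ± 0.09 for SNAI2 (adjusted p = 0.000377), -1.0034 ± 0.30 for OVOL1 (adjusted p = 0.0253) and 0.81 ± 0.19 for KLF4 (adjusted p = 0.00455). For SNAI2, WT2 and WT1 differed by 0.48 ± 0.05 (adjusted p = 0.000719), a difference that enters the comparison of the knockouts. By the study's account, the groups compared directly within the overexpression and within the knockdown experiment differed in RBPMS background, which the labels do not give. RBPMS was at 3.57 to 5.10 CPM in ANKRD10-1 and 4.64 to 6.14 CPM in ANKRD10-2, and at 4.46 to 4.76 CPM in siANKRD10-1 and 5.10 to 5.25 CPM in siANKRD10-2. Variant and background cannot be told apart in these comparisons.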

How the results depend on the processing

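Beside leaving out libraries, 464 of the factors' values kept their direction and side of the threshold, 7 passed it newly, 6 lost it and 4 changed sign. The factors called in KO1 went from 5 to 3 with all 6 WT libraries as control, while all genes called went from 6454 to 7682. Correlations between libraries of the same replicate number were small, from -0.035 to 0.082. In KO2 against WT2 (0.04 to 0.059) and in ANKRD10-2 against Vector (0.024 to 0.07), each treated replicate was most like the control of its own number. Whether the libraries were paired there was not tested. With the replicate block, the factors called in siANKRD10-1 went from 1 to 2, SNAI2 being added (0.17, adjusted p = 0.0427). All genes called in that comparison went from 1991 to 2778. The block also called OVOL2 in KO2 (-0.40, adjusted p = 0.0388) and ZEB2 in ANKRD10-2 (-0.20, adjusted p = 0.0306), and with it ZEB1 in ANKRD10-2 was -0.0033. TWIST1 in KO2, at -1e-04, was 0.0057 with DESeq2's size factors, 0.0016 with DESeq2 and 0.0046 with all libraries fitted. OVOL1 between the knockouts was -0.99 without the filter (adjusted p = 0.0512). Genes called between WT2 and WT1 went from 226 to 576 with DESeq2 and to 88 without the filter. Halved counts and the other WT group as control were chosen after seeing the data.

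Without 1 library each, the factors called ranged from 3 to 4 in ANKRD10-2 (3 without ANKRD10-2 replicate 1 or Vector replicate 1) and from 1 to 2 between ANKRD10-2 and ANKRD10-1 (1 without ANKRD10-1 replicate 1). Genes called ranged from 700 to 1549 in ANKRD10-1, 2617 to 3533 in ANKRD10-2, 694 to 1396 between them, 949 to 2430 in siANKRD10-1 and 71 to 133 between WT2 and WT1. Values that changed sign ranged for KO1 minus KO2 from -0.004 to 0.0394 (GRHL2), -0.22 to 0.0124 (OVOL2), -0.3431 to 0.7394 (SNAI1) and -0.2602 to 0.0059 (ZEB2), for KO2 from -0.0385 to 0.0519 (SNAI2) and -0.0409 to 0.0509 (TWIST1), and for KLF4 in WT2 over WT1 from -0.0748 to 0.078. They ranged from -0.0072 to 0.2056 for TWIST1 in ANKRD10-1, -0.0967 to 0.1728 for ZEB1 in ANKRD10-2, -0.0374 to 0.0369 for OVOL2 and -0.1746 to 0.26 for ZEB1 in siANKRD10-1, and, between the siRNA groups, -0.4944 to 0.0075 for OVOL1 and -0.0926 to 0.0432 for ZEB2. The cause was not tested. SNAI1, ZEB1 and TWIST2 had the fewest counts.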
